A study of Mus musculus with 298 samples.

Results

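The interferon response genes described here are 42 named mouse genes, of which 41 were found by gene symbol in a blood expression table of 14605 genes. No expression values of Ifi44 were analysed here, and it enters only the promoter counts below. A mean of at least 1 TPM (a library-scaled share of the library's transcripts, corrected for transcript length) was reached by 40 members, and Mx2, at a mean of 0.682 TPM, was left out of the tests. The 40 tested members were 32 type I interferon genes, 7 interferon gamma GTPases and the immunoproteasome subunit Psmb8. The type I genes comprised 6 regulators, 4 sensors of RNA or DNA and 22 effectors.

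All 20 mice were SCLtTA/BCR-ABL animals on the C57BL/6 background with the genotype tTA+/-, BCR-ABL+/-, male and female, and 6 to 8 weeks old. In this model the tetracycline transactivator is expressed under Scl control in blood-forming stem and progenitor cells, and it switches on the human BCR-ABL oncogene of chronic myeloid leukaemia when tetracycline is absent. The CML cohort (6 mice, 94 libraries) was taken off tetracycline at week 0. The TKI cohort (7 mice, 99 libraries) was taken off it in the same way and received the BCR-ABL kinase inhibitor nilotinib, at 50 mg/kg, from week 6 to week 10. The TOTO cohort (4 mice, 48 libraries) was off tetracycline for 6 weeks and then back on it. Tetracycline was given in the drinking water at 0.5 g/L, and the control cohort (3 mice, 57 libraries) was never taken off it and so carried the silent transgene. Week 0 preceded induction, and CML, TKI and TOTO mice together are called Tet-off mice.

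Cells that meet a virus or foreign nucleic acid release type I interferon, which acts through the receptor chains Ifnar1 and Ifnar2, the kinases Jak1 and Tyk2 and a complex with Stat2 and Irf9 that binds the interferon-stimulated response element (ISRE). Interferon gamma acts instead through the gamma-activated site (GAS), and its best known mouse targets include the immunity-related GTPases and guanylate-binding proteins that attack vacuoles holding intracellular pathogens. Both pathways overlap in their targets, and blood cell types differ in how strongly they express these genes at rest.

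Promoter sequence was read from RefSeq for build GRCm38.p6, as the 250 bases before and 50 bases after each start, for 32 of the 42 listed genes. The ISRE was searched as GAAA, any 2 bases and GAAA again, and the GAS as TTCNNNGAA, both on either strand. The ISRE letters occurred in the promoters of 19 of these 32 genes, comprising 13 of 24 type I genes and 6 of 7 GTPases, against 3.99% of 27025 genes with a promoter sequence. GAS letters occurred in 9 of 32, with 5 of 24 type I genes and 3 of 7 GTPases, against 9.55% of genes. A match is only a description of the letters in this window. The 90-base stretches below are shown for members whose values carry the results and for their closest copies, each 5′ to 3′ on the strand of the gene, with matches in capitals. They come from Isg15 (chr4:156200842-156200931, minus strand), Rsad2 (chr12:26456524-26456613, minus strand), Ifit3 (chr19:34583349-34583438, plus strand), Ifit3b (chr19:34607745-34607834, plus strand), Igtp (chr11:58199476-58199565, plus strand) and Irgm2 (chr11:58214867-58214956, plus strand), all in GRCm38.p6.
Isg15: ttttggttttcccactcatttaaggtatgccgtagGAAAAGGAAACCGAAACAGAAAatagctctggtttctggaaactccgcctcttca
Rsad2: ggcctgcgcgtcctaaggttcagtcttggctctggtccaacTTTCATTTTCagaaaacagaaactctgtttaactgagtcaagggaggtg
Ifit3: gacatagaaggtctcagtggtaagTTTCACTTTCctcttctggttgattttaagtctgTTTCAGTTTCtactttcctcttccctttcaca
Ifit3b: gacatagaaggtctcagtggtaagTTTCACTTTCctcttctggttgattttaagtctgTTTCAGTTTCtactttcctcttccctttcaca
Igtp: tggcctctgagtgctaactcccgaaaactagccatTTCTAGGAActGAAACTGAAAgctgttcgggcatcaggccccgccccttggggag
Irgm2: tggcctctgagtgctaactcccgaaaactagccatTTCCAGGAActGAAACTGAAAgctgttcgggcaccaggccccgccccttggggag

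The Isg15 stretch held 3 overlapping ISRE matches 78 to 66 bases before the start, and Rsad2 held 1 on the opposite strand. The Ifit3 and Ifit3b stretches were identical in 90 of 90 bases, each with 2 ISRE matches. Igtp and Irgm2 were identical in 88 of 90 bases, with a GAS match and an ISRE match 2 bases after it. Reads of the paired Ifit3 and Ifit3b genes, of Oas1a and its copies, and of the Gbp family can be split wrongly by quantification, so their separate values are uncertain.

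Haemoglobin transcripts took between 0.331% and 74.8% of TPM per library (median 42.6%), so the share left for other genes varied. The factor that would bring the median gene of a library to the common level ran from 0.134 to 3.84. The main counts of members that passed are therefore given for TPM as deposited and for TPM divided by this factor, called rescaled. TPM values and log2 changes of single members are as deposited unless rescaling is named, and not all are given on both scales. Human BCR-ABL transcripts were detected in 64 of 94 CML, 86 of 99 TKI, 28 of 48 TOTO and 8 of 57 control libraries. In the mouse labelled CML 487 they were detected in 3 of 19 libraries. The labels name the tissue as PBMC but describe RNA from whole blood, and red cell transcripts were present throughout. The library of control mouse 490 at week 17 stood apart, with 2552 genes at 1 TPM or more against a median of 9965 over all libraries. It gives no change to any test and enters only the weekly course and the correlations directly. Like every library it also counted in the mean TPM filter and in the trend over mean expression used by the tests. It counted as well in the choice of genes behind the rescaling factor.

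The highest levels, per transcript length, belonged to antiviral effectors and modifiers. Rsad2, which encodes the antiviral enzyme viperin (ENSMUSG00000020641.17, chr12:26492745-26506451 in GRCm39), averaged 229 TPM over 298 libraries and ranged from 8.96 to 808 TPM. Isg15, a ubiquitin-like protein attached to other proteins (ENSMUSG00000035692.8, chr4:156283883-156285303 in GRCm39), averaged 39.5 TPM with a highest value of 165 TPM. Psmb8 followed at 34.3 TPM. Igtp, an immunity-related GTPase (ENSMUSG00000078853.9, chr11:58089840-58098417 in GRCm39), averaged 33.8 TPM with a highest value of 119 TPM. Ifi27l2a at 30.5 TPM, Oasl2 at 28.0 TPM and the transcription factor Irf7 at 22.0 TPM came next. At the other end, Ifit3b averaged 1.07 TPM and Mx1 1.55 TPM. Mx1 encodes an antiviral GTPase whose C57BL/6 allele is known to carry a deletion.

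The members did not move as 1 block in blood. Over the weeks of each mouse, every member was correlated with the mean log2 level of 7 lists of cell type markers, and the median Spearman rho over the 20 mice was taken as a description, without a test. The points of such a correlation share libraries, their normalization and the make-up of the blood. On the rescaled scale Rsad2 followed the red cell list with a median rho of 0.94 (0.75 to 0.99, positive in 20 of 20 mice), and 0.609% of the 10519 genes tested had a rho as high. Isg15 followed the same list at 0.87, positive in 20 of 20 mice, a level reached by 1.78% of genes. Irf7 stood at 0.81 with it, but as deposited its closest list was the NK cell list, at 0.54. Without rescaling Rsad2 remained at 0.87 with the red cell list and Isg15 at 0.60, whereas the median gene stood at -0.67.

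Igtp followed the platelet list instead, with a rescaled median rho of 0.90 in 20 of 20 mice, reached by 4.43% of genes, and of 0.81 as deposited. The other GTPases were not tied as closely to it, with 0.52 for Ifi47 and 0.48 for Gbp7 on the rescaled scale. Ifi203, a PYHIN-family protein of the nucleus (ENSMUSG00000039997.17, chr1:173747971-173770436 in GRCm39), followed the B cell list at 0.84 and stood at -0.83 with the neutrophil list. Stat2 showed the same pattern, at 0.71 with the B cell and -0.73 with the neutrophil list. Zbp1, a sensor of left-handed nucleic acid, was highest with the monocyte list at 0.72, Ifit3 with the NK cell list at 0.63, and Oasl2 with the neutrophil list at 0.53. By the list with the highest rho, 13 members fell to NK cells, 7 to red cells, 6 to monocytes, 5 each to neutrophils and platelets, and 4 to B cells. As deposited, the same count gave 16 for monocytes, 12 for NK cells, 8 for B cells, 2 for red cells and 1 each for neutrophils and platelets, and the closest list was the same on both scales for 21 of 40 members and changed for 19. In these bulk samples fewer cells of a type and less RNA per cell cannot be told apart.

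**Figure D1:**
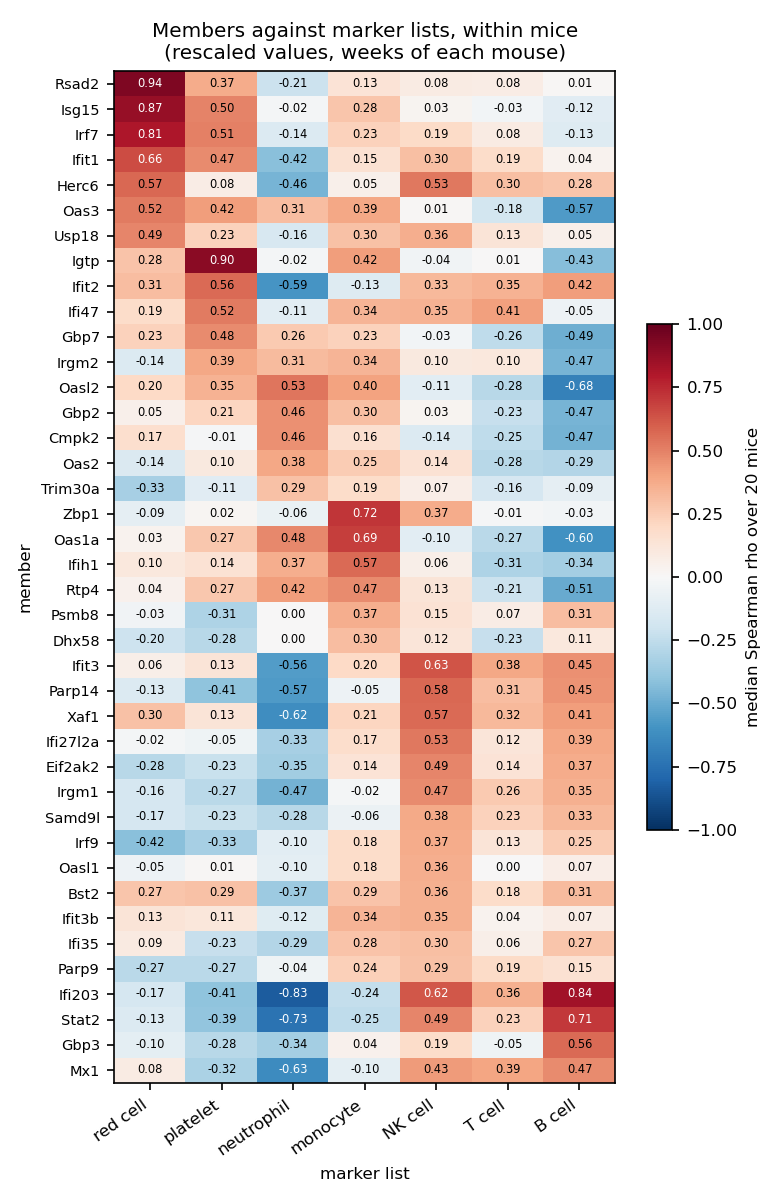
Median Spearman rho over 20 mice between each of the 40 tested members (vertical axis) and 7 marker lists (horizontal axis), from rescaled values over the weeks of each mouse. Rsad2 and Isg15 stand at 0.94 and 0.87 with the red cell list, Igtp at 0.90 with the platelet list and Ifi203 at 0.84 with the B cell list.

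Over all 298 libraries the genes most like Rsad2 in deposited TPM included Slc16a10 and Ccndbp1, each with a Spearman rho of 0.89. Isg15 was closest to Ank1 (0.86), the ankyrin of the red cell skeleton, and to Tspo2 (0.85). Igtp was closest to Cyb5a (0.96) and Ubash3b (0.95). Ifi203 was closest to Ifi209 (0.98), another PYHIN-family gene. Ifit3 was closest to Ifit3b (0.88), and Oasl2 to Mefv and Oas2 (0.84 each).

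**Figure D2:**
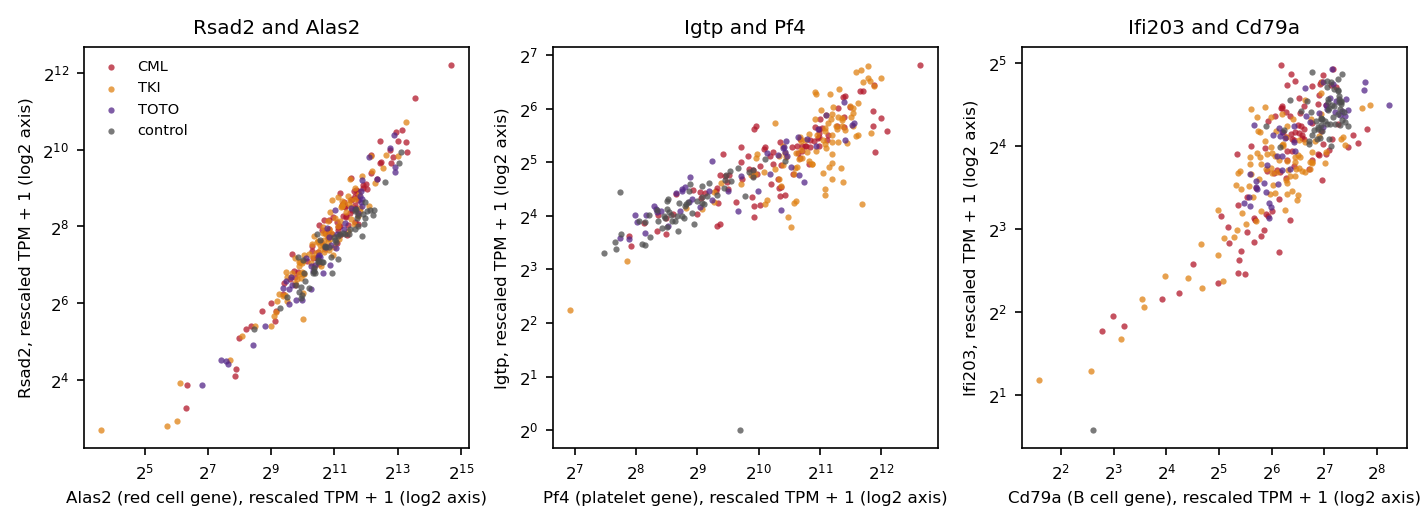
Rescaled TPM + 1 on log2 axes in 298 libraries, each point 1 library coloured by cohort: Rsad2 against the red cell gene Alas2, Igtp against the platelet gene Pf4, and Ifi203 against the B cell gene Cd79a. In each panel the member and the cell type gene are high in the same libraries; the median rho of the members with the matching lists was 0.94, 0.90 and 0.84.

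The first comparison asked what 6 weeks without tetracycline changed. As deposited, 9 of 40 members fell in the 17 Tet-off mice between week 0 and week 6 and 0 rose, by limma with a Benjamini-Hochberg adjusted p under 0.05, where 20.6% of all genes passed. The median member changed by -0.45 and the median gene by -0.34 on the log2(TPM + 1) scale. All 9 were type I genes, which made up 32 of the 40 tested members, and the count was near the share of all genes. They were the effectors Mx1, Ifi203, Ifit2, Ifi27l2a, Ifit3, Xaf1 and Samd9l, and the regulators Stat2 and Herc6, a ligase that attaches Isg15. On the rescaled scale 16 members fell and 6 rose, with a member median of -0.11, a gene median of -0.02 and 73.0% of genes past the threshold. The 6 that rose there were Igtp, Gbp7, Irgm2, Oas1a, Oasl2 and Ifih1.

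Mx1 stood at 0.0797, 0.431 and 1.86 TPM (lowest, median and highest of 17) at week 6, against 0.278, 1.91 and 13.7 TPM at week 0. The ranges overlapped, and Mx1 was lower at week 6 in 15 of 17 mice, by 1.19 ± 0.24 (SE) on the log2 scale (limma adjusted p = 0.000731). Ifi203 stood at 3.12, 12.0 and 24.1 TPM at week 6, against 5.73, 22.5 and 109 TPM at week 0, with a log2 change of -1.33 ± 0.36 (limma adjusted p = 0.00776). It was lower in 13 of 17 mice as deposited and in 17 of 17 after rescaling. Ifit2, an RNA-binding effector, stood at 0.844, 4.20 and 6.73 TPM at week 6 and at 2.19, 9.38 and 24.2 TPM at week 0. That was a log2 change of -1.09 ± 0.31 (limma adjusted p = 0.0103), with overlapping ranges and lower values in 14 of 17 mice. Ifit3 stood at 0.497, 1.76 and 3.34 TPM at week 6 and at 1.14, 3.53 and 18.9 TPM at week 0, and was lower in 12 of 17 mice.

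Igtp went the other way after rescaling. In TPM it stood at 8.09, 31.4 and 74.6 at week 6, against 6.56, 20.4 and 48.3 at week 0, a log2 change of 0.48 ± 0.34 that did not pass (limma adjusted p = 0.304). The rescaled change was 0.82 ± 0.11 (limma adjusted p = 1.65e-06), higher in 16 of 17 mice. Irgm1, which regulates other immunity-related GTPases, stood at 2.41, 6.78 and 10.3 TPM at week 6 and at 3.13, 8.31 and 33.7 TPM at week 0, and after rescaling it fell by 0.37. Isg15 stood at 19.3, 40.8 and 107 TPM at week 6 and at 8.40, 31.7 and 68.6 TPM at week 0, a log2 change of 0.73 ± 0.33 that did not pass (limma adjusted p = 0.0994). Irf7 (9.94, 19.7 and 32.2 TPM at week 6, against 12.1, 24.5 and 62.7 TPM at week 0) overlapped between the weeks. So did Oasl2, with 13.2, 24.3 and 77.6 TPM at week 6 against 6.41, 25.5 and 166 TPM at week 0.

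Bst2, which tethers budding virus to the cell surface, stood at 2.22, 5.99 and 8.25 TPM at week 6 and at 2.75, 6.17 and 24.4 TPM at week 0. Gbp2, a guanylate-binding protein, stood at 1.88, 5.30 and 7.38 TPM at week 6 and at 1.33, 3.79 and 33.0 TPM at week 0. Psmb8 stood at 13.0, 33.1 and 47.0 TPM at week 6 and at 11.0, 26.6 and 116 TPM at week 0. None of the 3 passed as deposited, and in each the week 6 range lay inside a wider week 0 range or overlapped it.

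The direction of the induction counts depended on a few week 0 libraries. In 8 mice, 6 of them Tet-off, the week 0 library had a size factor over 2, and without these mice (11 Tet-off mice left) 19 members rose and 1 fell. In that fit 58.2% of all genes passed, with a median of 0.45 over all genes and 0.41 over the members, so the whole table moved with them. With batch as a term 1 member passed, where 7.05% of genes did, and without TOTO mouse 483, CML mouse 484 or TKI mouse 502 the count was 4, 5 and 14. Other lists moved with the members on the rescaled scale: the neutrophil list rose (10 of 10 genes, median 2.52), the platelet list rose (5 of 5, median 1.44) and the B cell list fell (6 of 6, median -1.07). Their part in the members' changes was not tested. Of other pathway genes, Socs3, a feedback inhibitor, rose by 1.06 as deposited, and Rigi, Gbp4, Gbp8, Gbp9, Tgtp2 and Ciita fell.

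Control mice changed over the same weeks too. Mx1 stood at 1.11, 0.985 and 3.44 TPM at week 6 in the control mice 488, 489 and 490, against 1.70, 4.14 and 5.78 TPM at week 0. Their Ifi203 was lower at week 6 in 3 of 3 mice (16.4, 12.3 and 27.2 TPM, against 19.7, 50.5 and 45.1 TPM). Set against the control change, 0 of 40 members passed in limma as deposited, where 0.019% of genes did, and 0 had an unadjusted p under 0.05. The smallest p belonged to Igtp (log2 difference 1.18 ± 0.88), Oas1a (1.03), Oasl2 (1.04) and Irgm2 (0.84), each with an adjusted p of 1. After rescaling 2 members passed, where 16.2% of genes did: Ifit2 changed by -0.95 and Ifi203 by -0.93 relative to control mice. Without the control mice 488, 489 or 490 in turn that count was 0, and without CML mouse 487 it was 4. Within batches the rescaled Ifi203 change was -0.71 in 2 Tet-off and -0.15 in 2 control mice of 2021_E, and -1.26 in 10 Tet-off mice and 0.14 in 1 control mouse of 2022_A. Batch 2022_B held 5 Tet-off mice and no control.

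The GTPases and the type I genes were then compared within each library, as the mean log2(TPM + 1) of the 7 GTPases minus that of the 32 type I genes. This difference hardly depends on the scale of a library. At week 0 it averaged -0.12 in CML, -0.28 in TKI, -0.19 in TOTO and -0.23 in control mice. At week 1 it already stood at 0.09 in CML, 0.10 in TKI and -0.05 in TOTO mice, against -0.29 in control mice. The median level of BCR-ABL transcripts at week 1 was 0 TPM in CML, 0.952 TPM in TKI and 0.489 TPM in TOTO mice. At week 2 the difference stood at 0.21 in CML, 0.41 in TKI and 0.44 in TOTO mice, against -0.20 in control mice. The week 6 values were 0.09 ± 0.25 in CML (SD, n = 6), 0.29 ± 0.17 in TKI (n = 7), 0.06 ± 0.15 in TOTO (n = 4) and -0.23 ± 0.16 in control mice (n = 3). The sign in Tet-off mice rested on Igtp: without it the week 6 means were -0.18 in CML, -0.07 in TKI and -0.29 in TOTO mice, against -0.46 in control mice.

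From week 0 to week 6 the difference went up in 14 of 17 Tet-off mice, by 0.37 ± 0.29 (SD), and in 1 of 3 control mice, by -0.01 ± 0.20 (SD). Among TKI mice it went up in 7 of 7 (0.57), among CML mice in 4 of 6 (0.21) and among TOTO mice in 3 of 4 (0.26). By batch the mean change was 0.23 in 2 Tet-off and -0.12 in 2 control mice of 2021_E, 0.33 in 10 Tet-off mice and 0.21 in 1 control mouse of 2022_A, and 0.50 in 5 Tet-off mice of 2022_B, which has no control. The control mouse of 2022_A therefore lay inside the range of its Tet-off batch mates (-0.12 to 0.65). Over all weeks CML mouse 487, in which the transgene was rarely detected, was above 0 in 1 of 19 libraries, with a median of -0.16. The other CML mice were above 0 in 7 of 8, 19 of 19, 7 of 12, 17 of 19 and 16 of 17 libraries, and the control mice in 2, 0 and 3 of 19. No test was made on this mean, because the members were chosen with results known.

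The difference stayed up under nilotinib and reached 0.56 ± 0.11 (SD, n = 7) in TKI mice at week 10, when it was 0.17 in CML and -0.07 in control mice. It went below 0 in all 4 TOTO mice 1 week after tetracycline returned, at -0.37 on average at week 7, and stood at 0.12 at week 8 and -0.02 at week 18. The sign at week 7 rested in part on Isg15 and Rsad2. Leaving out these genes, TOTO mice averaged 0.34 at week 6 and -0.08 at week 7 (-0.35 to 0.11). Without Igtp the mean in TKI mice was 0.097 at week 10 and -0.51 at week 0, and in control mice -0.31 at week 10 and -0.45 at week 0. Before nilotinib this TKI mean was already 0.092 at week 2 and 0.068 at week 5, and it was -0.069 at week 6. With Isg15 and Rsad2 left out as well, TKI mice stood at 0.32 at week 10 and -0.23 at week 0, and control mice at -0.11 and -0.29. TKI mice then stood at 0.31 at week 2, 0.29 at week 5 and 0.17 at week 6. Without Igtp the week 10 level in TKI mice was thus near that of week 2.

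**Figure D3:**
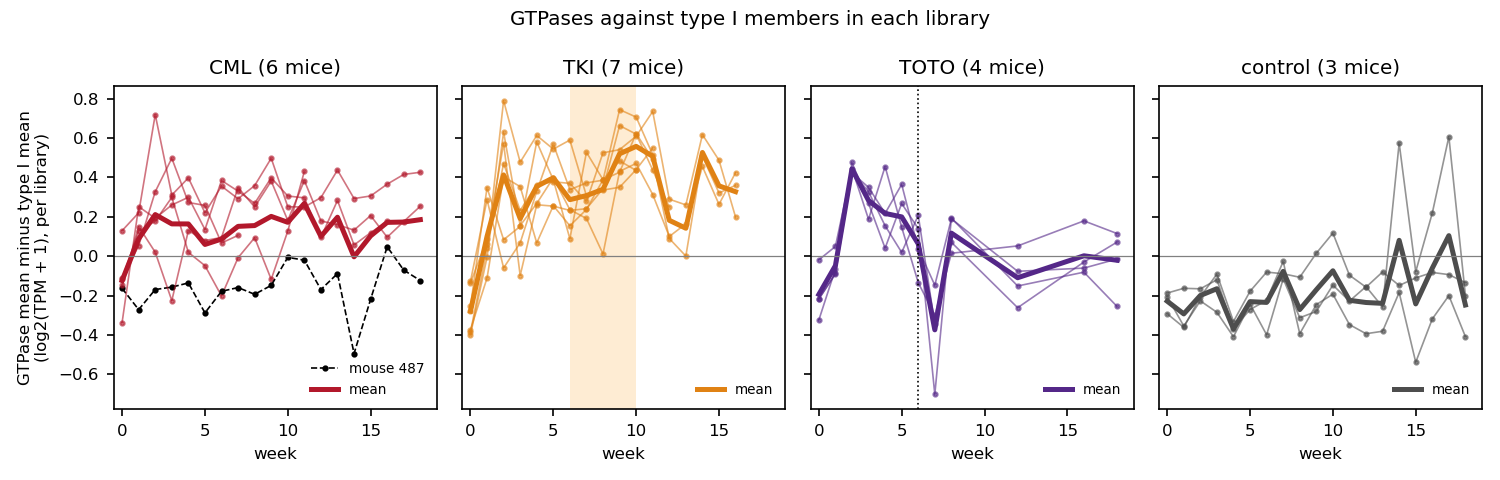
GTPase mean minus type I mean in log2(TPM + 1) (vertical axis) by week (horizontal axis), with 1 thin line per mouse and a thick line for the cohort mean. The shaded span is nilotinib treatment and the dotted line the return of tetracycline. TKI mice climb to a mean of 0.56 at week 10, TOTO mice drop to -0.37 at week 7, and CML mouse 487 (dashed) lies near the control mice.

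At the end of the disease course no member passed the test against control mice. Between week 0 and the last library of the 6 CML mice (weeks 7 to 18), against week 0 to week 18 in 3 control mice, 0 of 40 members passed in limma as deposited, where 0.0951% of genes did, and 0 had an unadjusted p under 0.05. After rescaling 0 passed, where 0.295% of genes did, and 9 had an unadjusted p under 0.05. The member median was -0.35 and the gene median 0.08 as deposited, and 35 of 40 members had a negative value. The 4 with the smallest p were Ifi27l2a (-1.68 ± 0.87), Ifi203 (-1.58 ± 0.85), Ifit3 (-1.09 ± 0.63) and Xaf1 (-0.89 ± 0.68), each with an adjusted p of 1. In the same comparison 3 of 10 neutrophil genes passed (list median 3.04), and 0 of 6 B cell genes did (list median -1.86).

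As deposited, Ifi203 stood at 0.917, 9.44 and 10.8 TPM (lowest, median and highest of 6) in the last CML libraries. At week 0 it stood at 16.2, 39.0 and 109 TPM, and the ranges did not overlap. The week 0 libraries of CML mice 480, 484 and 487 had size factors of 3.69, 3.02 and 3.53, so deposited TPM was high there for most genes. The 6 mice include mouse 487, in which the transgene was rarely detected. In control mice Ifi203 was 16.8, 9.71 and 28.3 TPM at week 18 (mice 488, 489 and 490), below week 0 in 3 of 3. Ifit3 stood at 0.340, 1.35 and 2.85 TPM in the last CML libraries and at 2.14, 6.37 and 11.1 TPM at week 0. Control mice had 3.85, 2.88 and 10.2 TPM of Ifit3 at week 18 and 3.15, 8.66 and 10.1 TPM at week 0. Isg15 overlapped, with 8.69, 21.0 and 45.6 TPM in the last CML libraries and 8.40, 31.3 and 53.1 TPM at week 0. Oasl2 reached 104 TPM in CML mouse 477 at week 7 and 62.0 TPM in mouse 480 at week 18, while mice 484 and 542 ended at 11.5 and 10.1 TPM.

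Under nilotinib members passed at about the share of all genes, and in opposite directions. Between week 6 and week 10 of the 7 TKI mice 2 members rose, Ifit2 and Igtp, and 1 fell, Oasl2, by limma as deposited, where 7.94% of genes passed. The member median was -0.06 and the gene median 0.07. After rescaling 8 rose and 5 fell, where 36.5% of genes passed. Ifit2 stood at 3.48, 8.48 and 12.8 TPM (lowest, median and highest of 7) at week 10, against 2.39, 4.67 and 6.25 TPM at week 6, and was higher in 7 of 7 mice. Its log2 change was 0.84 ± 0.19 (limma adjusted p = 0.00662). Igtp stood at 31.2, 81.9 and 116 TPM at week 10, against 22.5, 45.0 and 74.6 TPM at week 6, higher in 7 of 7 mice by 0.79 ± 0.21 (limma adjusted p = 0.022). Both rises were of similar size in the 4 mice of batch 2022_A (0.91 for Ifit2, 0.74 for Igtp) and the 3 of batch 2022_B (0.75 and 0.86).

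Oasl2, a protein of the oligoadenylate synthetase family that promotes RNA sensing, stood at 12.2, 17.3 and 24.4 TPM at week 10 and at 19.5, 38.0 and 63.9 TPM at week 6. It was lower in 6 of 7 mice, with overlapping ranges, by 1.07 ± 0.26 on the log2 scale (limma adjusted p = 0.0102). The neutrophil list fell beside it (10 of 10 genes, median -1.83) and the T cell list rose (6 of 6, median 1.07), and their part was not tested. Isg15 (14.0, 29.3 and 53.7 TPM at week 10, 22.3, 36.2 and 107 TPM at week 6) overlapped. Bst2 stood at 4.59, 7.89 and 11.3 TPM at week 10 and at 4.13, 6.06 and 8.25 TPM at week 6, higher in 7 of 7 mice without passing as deposited. Irf7, Ifit3, Gbp2, Irgm1 and Psmb8 had week 10 medians of 19.5, 2.66, 6.20, 7.73 and 36.2 TPM, against week 6 medians of 21.0, 1.71, 5.75, 7.17 and 34.4 TPM, and all 5 overlapped. Among pathway genes outside the list, Gbp4, Tgtp1 and Tgtp2 rose by 0.76, 0.67 and 0.79, and Ifnlr1, a receptor chain for type III interferon, fell by 0.77.

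The count of members depended on single mice, at 1 without TKI mouse 508, 6 without TKI mouse 511, and 5 without CML mouse 484 or control mouse 488, which enter through the shared spread. Against the change of 5 CML mice over the same weeks only Oasl2 passed as deposited, where 3.41% of genes did, and 3 members were higher and 2 lower after rescaling, where 20.9% did. Oasl2 in these CML mice (480, 484, 487, 541 and 542) was 34.5, 33.9, 15.7, 29.8 and 22.5 TPM at week 10, against 23.7, 18.1, 13.2, 16.9 and 13.5 TPM at week 6, and so higher in 5 of 5 as deposited. After rescaling mouse 484 was lower at week 10 (29.4, against 40.3 at week 6) and the other 4 were higher. The difference between the cohorts was -1.69 ± 0.40 (limma adjusted p = 0.0164). In batch 2022_A it went by -1.50 in 4 TKI mice and 0.87 in 1 CML mouse, and in batch 2022_B by -0.50 in 3 TKI and 0.47 in 2 CML mice. The call was lost without CML mouse 484, CML mouse 541 or TKI mouse 502. Without control mouse 488, control mouse 490 or CML mouse 542 the count was 2. Igtp, which had risen in TKI mice, was also higher in 5 of 5 CML mice at week 10, and the difference between the cohorts was 0.21 ± 0.33 (limma adjusted p = 0.881). The next members by p after Oasl2 were Cmpk2 (-1.04 ± 0.32, limma adjusted p = 0.0798), Rtp4 (-1.21 ± 0.44) and Oas2 (-0.86 ± 0.35), all type I genes that did not pass.

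After nilotinib stopped, 13 members fell and 0 rose between week 10 and the last library of 6 TKI mice (weeks 11 to 16), by limma as deposited, where 26.8% of genes passed. The member median was -0.46, against -0.06 over all genes. On the rescaled scale 15 fell and 0 rose, where 45.9% of genes passed, with medians of -0.40 and -0.01. The 12 with the smallest p were the GTPases Igtp, Ifi47 and Gbp3, the regulator Isg15, and the effectors Ifi203, Ifi27l2a, Ifit3, Ifit2, Ifit1, Rsad2, Xaf1 and Ifit3b. Bst2 was the remaining one (-0.81 ± 0.29, limma adjusted p = 0.0355). TKI mouse 514 ended at week 10 and gave no change. No CML counterpart was fitted for these weeks.

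Igtp stood at 4.40, 18.2 and 31.0 TPM (lowest, median and highest of 6) in the last libraries, against 65.6, 84.2 and 116 TPM at week 10. The ranges did not overlap and all 6 mice were lower, by 2.41 ± 0.33 on the log2 scale (limma adjusted p = 8.26e-06). The 5 platelet genes all fell beside it, with a median of -2.46, while neutrophil genes rose (10 of 10, median 2.52) and B cell genes fell (6 of 6, median -2.44). Their part was not tested. Ifi203 stood at 1.51, 4.14 and 10.3 TPM, against 8.37, 17.5 and 31.3 TPM at week 10, with a log2 change of -1.92 ± 0.34 (limma adjusted p = 0.000129) and lower values in 5 of 6 mice. Ifit3 stood at 0.324, 0.642 and 1.02 TPM, against 2.00, 2.68 and 3.36 TPM at week 10, without overlap and lower in 6 of 6. Its log2 change was -1.14 ± 0.25 (limma adjusted p = 0.000844), and it varied little between the 6 mice (SD 0.15).

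Ifit2 stood at 1.95, 3.14 and 5.78 TPM in the last TKI libraries, against 7.16, 8.90 and 12.8 TPM at week 10, so the rise under nilotinib was followed by a fall in 6 of 6 mice. Isg15 stood at 4.35, 9.04 and 35.6 TPM, against 14.0, 28.9 and 39.1 TPM at week 10, a log2 change of -1.27 ± 0.36 (limma adjusted p = 0.00843). Rsad2 stood at 9.49, 60.4 and 226 TPM, against 68.6, 194 and 211 TPM at week 10, a log2 change of -1.36 ± 0.43 (limma adjusted p = 0.0196). Both were lower in 5 of 6 mice as deposited, and neither passed after rescaling. Leaving out TKI mouse 511, whose last library was 1.62% haemoglobin, ended both calls. Of the 10 regulators and sensors only Isg15 passed as deposited.

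Oasl2 spread widely in the last TKI libraries, at 1.84, 16.2 and 38.7 TPM, against 14.1, 17.9 and 24.4 TPM at week 10, and was lower in 4 of 6 mice. Irf7 stood at 6.78, 14.0 and 21.1 TPM, against 16.9, 19.2 and 23.1 TPM at week 10. Gbp2, with 4.48, 6.98 and 18.5 TPM in the last libraries and 4.90, 6.32 and 7.75 TPM at week 10, was higher in 4 of 6 mice. Irgm1 and Psmb8 overlapped between the weeks and did not pass. Mx1 moved in both directions, to 9.79 TPM in mouse 502 and 0.0570 TPM in mouse 508, against 2.13 and 2.15 TPM in these mice at week 10. In batch 2022_A (4 mice) the mean change was -2.82 for Igtp and -0.56 for Rsad2, and in batch 2022_B (2 mice) it was -1.61 and -2.96. The mice of 2022_B (511 and 513) ended at week 11, and those of 2022_A at week 12 (508) or week 16 (502, 507 and 512). Batch and time after nilotinib therefore cannot be told apart here. Genes of the pathway outside the list also passed, with Ciita, the master regulator of MHC class II genes, at -2.21, B2m at -1.77, Irf8 at -1.51 and Mavs at -1.54, and with Ifnlr1 at 1.45 and Myd88 at 1.24.

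**Figure D4:**
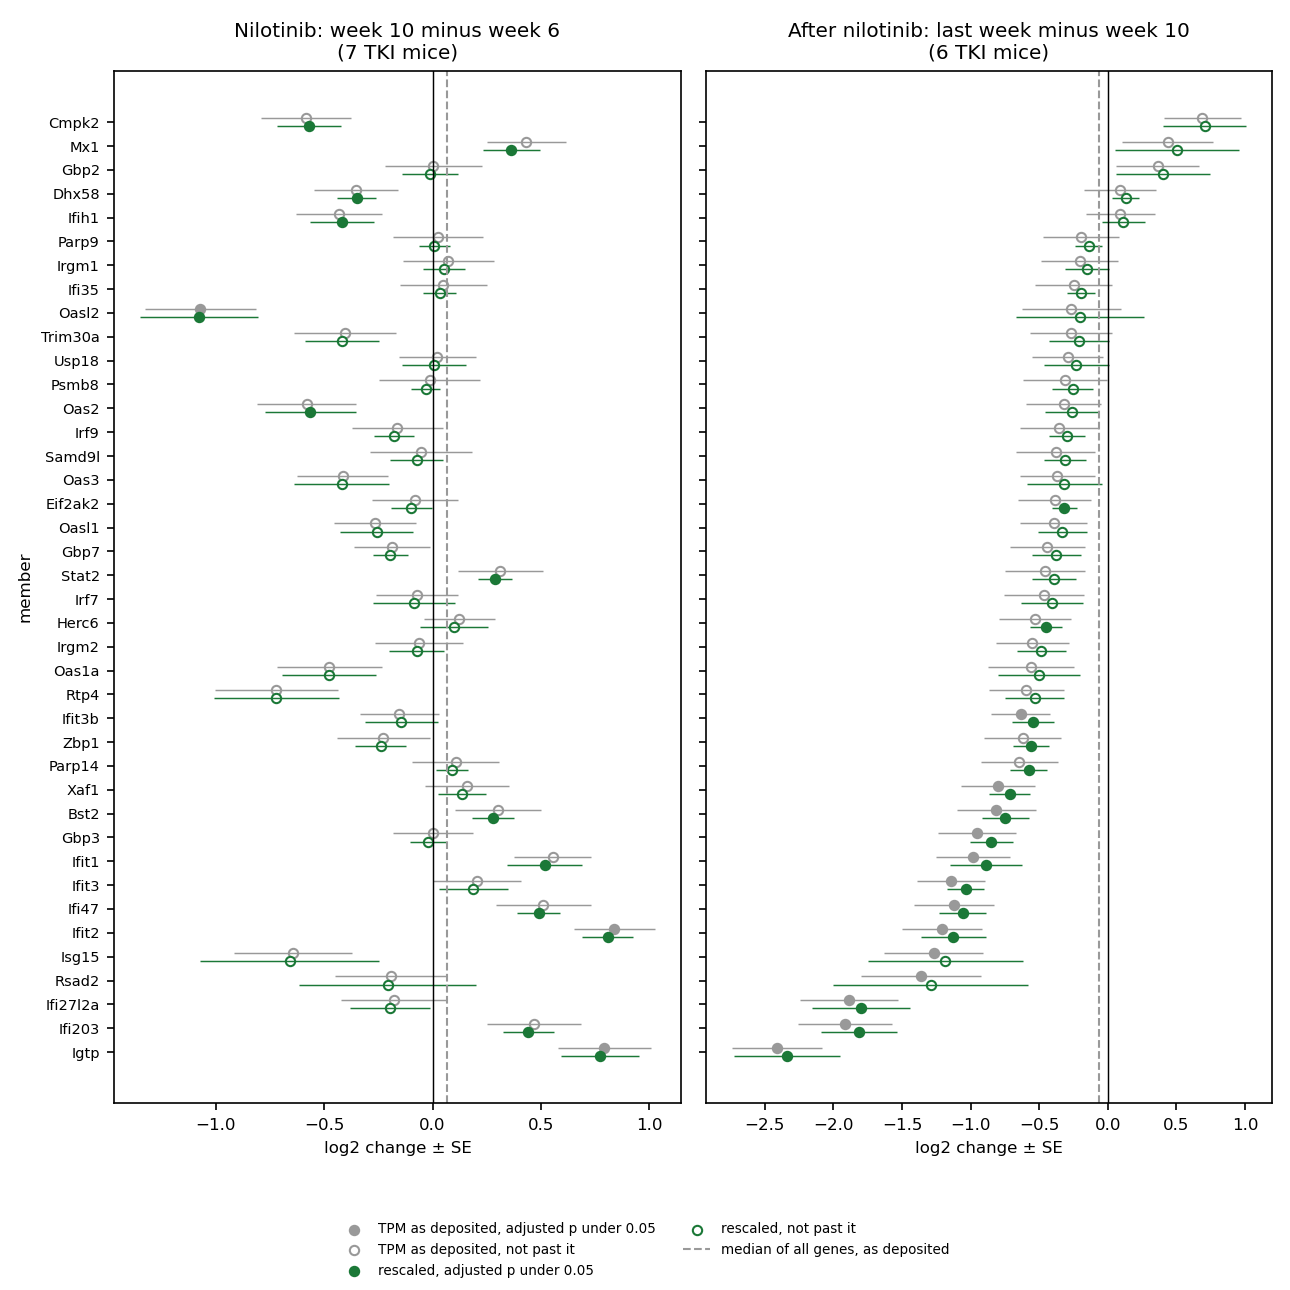
Log2 change ± SE of the 40 tested members in TKI mice under nilotinib (left, week 10 minus week 6, n = 7) and after it (right, last week minus week 10, n = 6), grey as deposited and green rescaled, filled where the limma adjusted p was under 0.05. Igtp changes by 0.79 on the left and by -2.41 on the right, and 13 grey points are filled on the right.

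After tetracycline returned, TOTO mice differed between the first and the second week. At week 7, 12 members were lower and 1 higher than at week 6 as deposited, where 36.0% of genes passed and the medians were -0.63 for members and -0.58 for all genes. After rescaling 3 were lower and 9 higher at week 7, where 44.8% of genes passed, with medians of 0.14 and 0.02. At week 8, 27 members were higher and 3 lower than at week 6 as deposited, where 74.2% of all genes passed and the median gene changed by 0.95. The member median was 0.87, below that of all genes, so the larger number of higher calls went with a change of the whole library. On the rescaled scale 9 members were higher and 14 lower at week 8, where 67.6% of genes passed, and the medians were -0.12 for members and 0.07 for all genes. Of the 12 members with the smallest p, Mx1, Ifi203, Ifit2, Samd9l, Stat2, Gbp3, Irgm1, Xaf1 and Parp14 were higher on both scales. Ifit3 and Psmb8 were higher as deposited only, and Isg15 was lower on both.

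Mx1 in the TOTO mice 476, 482, 483 and 545 was 3.84, 2.32, 6.34 and 2.75 TPM at week 8, against 0.0988, 0.431, 0.369 and 0.528 TPM at week 6. All 4 mice rose without overlap, by 1.77 ± 0.21 (limma adjusted p = 4.36e-07), and the rescaled change was 1.10. Ifi203 in the same mice was 39.3, 37.4, 57.2 and 36.9 TPM at week 8, against 4.13, 5.51, 8.09 and 16.5 TPM at week 6, again without overlap (log2 change 2.33 ± 0.32, rescaled 1.24). Ifit2 was 15.5, 11.7, 13.6 and 13.6 TPM at week 8 and 1.09, 1.79, 2.87 and 6.72 TPM at week 6, with no overlap and a log2 change of 2.00 ± 0.29. Irgm1 was 14.0, 13.4, 22.5 and 16.5 TPM at week 8 and 2.93, 3.46, 5.21 and 10.3 TPM at week 6, a log2 change of 1.54 ± 0.28 with no overlap.

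Isg15 went down in the same libraries. It was 35.9, 25.3, 15.7 and 16.5 TPM at week 8 in mice 476, 482, 483 and 545, against 90.7, 103, 55.0 and 32.7 TPM at week 6. All 4 were lower, by 1.49 ± 0.33 (limma adjusted p = 0.000402), and by 2.61 after rescaling, although 1 week 8 value exceeded the lowest week 6 value. Rsad2 was 115, 160.5, 67.4 and 107 TPM at week 8, against 304, 374, 249 and 129.5 TPM at week 6, lower in 4 of 4 by 1.19 ± 0.29 (limma adjusted p = 0.000787). Oasl2 was the other member that fell as deposited, at 13.3, 18.9, 22.3 and 14.9 TPM at week 8 and 16.2, 24.8, 24.3 and 77.6 TPM at week 6. On the rescaled scale the red cell list fell (6 of 6 genes, median -1.72), as did the platelet list (5 of 5, median -1.67) and the neutrophil list (10 of 10, median -3.87), while the B cell list rose (6 of 6, median 2.06). Their part was not tested.

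Ifit3 was 4.67, 4.95, 5.07 and 5.09 TPM at week 8 and 0.859, 1.76, 1.18 and 3.34 TPM at week 6, and Psmb8 was 57.8, 49.6, 80.4 and 84.0 TPM against 13.0, 28.8, 27.4 and 43.7 TPM. Neither overlapped as deposited, and neither passed after rescaling. Bst2 was 9.89, 8.24, 14.1 and 14.2 TPM at week 8 and 2.92, 6.04, 4.67 and 7.95 TPM at week 6, without overlap. Gbp2, at 5.33, 5.29, 8.34 and 7.61 TPM against 1.91, 3.18, 3.57 and 7.38 TPM, was higher in 4 of 4 as deposited and lower in 4 of 4 rescaled. Igtp was 36.3, 36.2, 31.9 and 28.4 TPM at week 8 and 14.3, 23.7, 38.3 and 56.1 TPM at week 6, and Irf7 was 21.6, 20.9, 23.2 and 21.1 TPM against 9.94, 18.1, 18.4 and 32.2 TPM. Neither passed as deposited, and both were lower in 4 of 4 mice after rescaling. At week 7 Igtp had been 6.72, 12.5, 7.94 and 5.51 TPM, below both other weeks in every mouse.

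**Figure D5:**
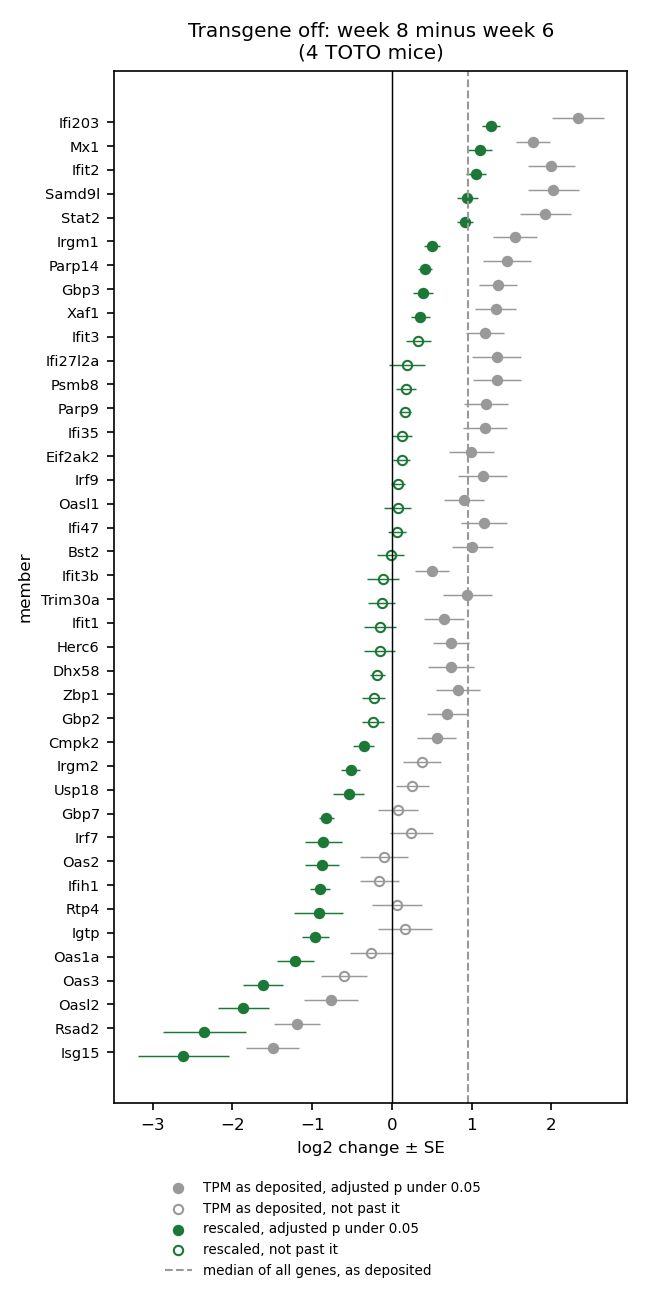
Log2 change ± SE of the 40 tested members in 4 TOTO mice, week 8 minus week 6, grey as deposited and green rescaled, filled where the limma adjusted p was under 0.05; the dashed line is the median change of all genes as deposited, 0.95. Rescaled changes run from 1.24 for Ifi203 down to -2.61 for Isg15.

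Against the change of 5 CML mice over weeks 6 to 8, 20 members were higher and 2 lower in TOTO mice as deposited, where 52.3% of genes passed, and 8 higher and 10 lower after rescaling, where 56.9% did. Mx1 differed by 1.82 ± 0.29 (limma adjusted p = 5.66e-05), Ifi203 by 2.24 ± 0.43 and Isg15 by -1.47 ± 0.44 (limma adjusted p = 0.0106). In CML mice 480, 484, 487, 541 and 542 Mx1 was 1.81, 0.774, 1.95, 0.439 and 0.323 TPM at week 8, against 1.86, 0.0797, 1.80, 1.03 and 0.918 TPM at week 6. All TOTO mice were of batch 2022_A, which held 1 CML mouse with both weeks, mouse 484. In that mouse Mx1 changed by 0.72, Ifi203 by 1.38 and Isg15 by -1.15, against 1.77, 2.33 and -1.49 in the 4 TOTO mice. After rescaling the change of Ifi203 was 0.12 in mouse 484 and 1.24 in the TOTO mice. With batch as a term 4 members passed, where 8.54% of genes did. Without TOTO mouse 476 or 483, or CML mouse 541 or 542, the count was 11, 12, 13 and 12. Pathway genes outside the list rose with the members as deposited at week 8. They included all 7 other GTPases tested, all 9 antigen presentation genes and 8 of 9 kinases and transcription factors, with Irf8 at 2.14. Between weeks 6 and 8 of the TOTO mice 7334 of 10519 genes passed as higher on this scale. The median gene changed by 0.95, so these counts went with a change of the whole library.

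At week 18, after 12 weeks back on tetracycline, 0 of 40 members passed in TOTO mice relative to control mice by limma on either scale, where 0.0% of genes passed on either. As deposited 0 members had an unadjusted p under 0.05, and after rescaling 1 had. The member median was -0.62, against -0.30 over all genes as deposited. The 4 members with the smallest p were Oas2 (-1.13 ± 0.85), Cmpk2 (-0.96 ± 0.74), Ifih1 (-0.89 ± 0.70) and Usp18 (-0.81 ± 0.65), each with an adjusted p of 0.993. Isg15 was 17.5, 41.8, 24.9 and 32.5 TPM in TOTO mice at week 18 and 33.3, 45.3 and 36.2 TPM in control mice 488, 489 and 490. Igtp was 18.3, 25.1, 23.9 and 27.4 TPM in TOTO mice and 17.4, 14.8 and 29.3 TPM in control mice, and the cohorts overlapped in both genes. The standard errors of the 4 members with the smallest p were 0.65 to 0.85. Their differences were larger than these errors and still did not pass with 4 and 3 mice. The absence of calls therefore does not show that the cohorts were alike.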

How the data were processed

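Blood RNA of 20 mice was sampled repeatedly (weekly, except in TOTO mice after week 8) and sequenced after ribosomal RNA depletion, per the labels' protocols. The deposited table holds TPM per gene and library as the authors made it, and the submitters' processing notes name GRCm39, STAR and Salmon (versions not given in the sources used here). Depth is unknown, since TPM keeps none. Ensembl IDs were named with GENCODE M39 (14537 mouse IDs matched, 64 not).

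From the deposited TPM, log2(TPM + 1) was computed, and 1 change per mouse was tested with limma 3.58.1 (R 4.3.3; lmFit, eBayes with a trend), adjusted by Benjamini-Hochberg over 10519 genes with a mean of at least 1 TPM. The mouse is thus the block, and the pairing comes from repeated sampling of the same mouse. Cohorts in the same fit shared 1 estimate of the spread, and the fit after nilotinib held TKI mice only. The pseudocount makes fold changes of low genes too small. Rescaled TPM was divided by median-ratio size factors from 4339 genes above 0 in all libraries. Scripts were tested on simulated data. P-values measure the spread between mice.

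Members, lists and tests were chosen with earlier results of these data known. In each comparison the members that passed are named, at most 12 by smallest p, or the 4 with the smallest p where fewer than 4 passed; Isg15, Ifit3, Irf7, Oasl2, Bst2, Gbp2, Igtp, Irgm1 and Psmb8 are given by mouse or range. Alternatives were a pseudocount of 0.1, no filter, rescaling, removal of haemoglobin and erythroid genes, no block, a batch term, other weeks and leaving out each mouse.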

Additional observations from a re-analysis of the deposited data

Results flagged for a closer look

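In 10 of 119 groups of 4 to 10 libraries checked with Dixon's outlier test, 1 mouse lay far from the others. The groups share libraries and TPM was not log-transformed. The test's nominal rate of about 1 in 20 is therefore no measure of chance here. CML mouse 484 did so 5 times: Isg15 at 83.15 TPM at week 6 (others 19.25 to 42.13), Oasl2 at 165.9 TPM (others 14.64 to 55.75) and Gbp2 at 32.98 TPM (others 2.424 to 11.16) at week 0, Bst2 at 2.223 TPM at week 6 (others 5.102 to 6.644), and Gbp2 at 35.21 TPM in its last library, at week 11 (others 2.035 to 7.617). Bst2 was also low in the last library of CML mouse 542, at 1.396 TPM. TOTO mouse 545 stood high for Oasl2 at week 6 (77.59 TPM, others 16.23 to 24.79), Ifit3 at week 18 (6.682 TPM, others 3.79 to 3.923) and Rsad2 at week 0 (192.9 TPM, others 52.79 to 71.31). TKI mouse 514 had 401.1 TPM of Rsad2 at week 10, against 68.57 to 211.1 TPM in the other 6.

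Changes differed between cohorts by a test of the difference itself (limma). Between TKI and CML mice over weeks 6 to 10 this held for 1 member, Oasl2 (-1.692). Between TOTO and CML mice over weeks 6 to 8 it held for 22 members, led by Mx1 (1.821), Ifi203 (2.237), Ifit2 (1.84), Samd9l (1.911), Stat2 (1.758), Irgm1 (1.509), Parp14 (1.551), Ifit3 (1.189), Xaf1 (1.165), Gbp3 (1.071), Isg15 (-1.472) and Parp9 (1.15).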

How the results depend on the processing

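Counts below are members past the limma threshold, and the cause of a change was not tested. For induction the main count of 9 became 22 rescaled, 26 without haemoglobin and erythroid genes, 1 with a batch term, 17 with a batch term and rescaled, 25 from week 1 and rescaled, 20 without the 8 mice with a week 0 size factor over 2 (Samd9l then 0.096) and 23 without them and rescaled. Relative to control mice 0 became 2 rescaled. For the CML end 0 became 3 with batch and rescaled. For TKI week 10 against week 6, 3 became 13 rescaled, 13 without erythroid genes, 0 without the replicate block, 9 at week 9 and rescaled, and 6 with batch and rescaled. For TKI against CML, 1 became 0 without the filter, 5 rescaled, 4 without erythroid genes, 0 without the replicate block, 2 with batch, 0 at week 9, and 2 with batch and rescaled. For TKI after nilotinib 13 became 21 without erythroid genes. For TOTO week 8 against week 6, 30 became 13 at week 7, 12 at week 7 rescaled, and 18 with batch and rescaled. For TOTO against CML, 22 became 14 without the replicate block, 4 with batch, 19 at week 7, 9 at week 7 rescaled, and 13 with batch and rescaled. Libraries with a type I mean more than 1 above the mouse's own median numbered 8 as deposited and 0 rescaled.

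With week 7 in place of week 8, TOTO changes turned to -0.17 for Ifi203, -0.10 for Ifit2, -0.66 for Samd9l, -0.64 for Gbp3, -0.56 for Irgm1, -0.34 for Xaf1, -0.15 for Parp14 and -0.76 for Psmb8, and rescaled to -0.028 for Gbp3 and 0.20 for Isg15. Relative to CML mice they turned to -0.75 for Ifi203, -0.57 for Ifit2, -1.49 for Samd9l, -0.41 for Stat2, -0.87 for Irgm1, -0.68 for Parp14, -0.091 for Ifit3, -0.79 for Xaf1, -0.70 for Gbp3 and -1.14 for Parp9, and rescaled to -0.42 for Samd9l, 0.61 for Isg15 and -0.070 for Parp9.

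Leaving out each mouse in turn gave 4 to 14 members for induction, 0 to 0 relative to control mice, for the CML end and for TOTO week 18, 1 to 6 for TKI week 10, 0 to 2 for TKI against CML, 22 to 30 for TOTO week 8, 11 to 28 for TOTO against CML and 10 to 19 for TKI after nilotinib. There the calls of Gbp3 (without 507), Ifit3b (502, 512 or 513) and Xaf1 (508, 512 or 513) were also lost. In TKI week 10 Igtp was lost without 508, 512 or 513 and Oasl2 without 502 or 508. Depth is unknown, and 3 control mice limit every comparison with them.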

Other observations

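Rsad2 reached its highest levels in CML mouse 487, with 458, 628, 808, 604 and 593 TPM at weeks 13 to 17, when haemoglobin took 61.5, 73.1, 68.3, 58.3 and 64.8% of TPM. Gbp3 reached 207 TPM in the control library that stood apart (mouse 490, week 17). Ifi27l2a, a small mitochondrial protein gene, reached 207 TPM in CML mouse 484 at week 0.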
